A study of Homo sapiens with 6 samples.

Results

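The insulin and insulin-like growth factor (IGF) axis with the FOXO transcription factors was examined through 10 genes, INSR, IGF1R, IGF2R, IRS1, IRS2, IGFBP2, IGFBP6, FOXO1, FOXO3 and FOXO4, chosen by gene symbol from the 19223 symbols of the deposited table. They account for 17 of its 45006 transcript rows, and each gene is represented by its most abundant transcript, averaged over the 6 libraries. RNA came from LoVo, an established human colorectal adenocarcinoma line grown with serum, either with vehicle alone (Control, 3 libraries) or with DCC-2036 at 2.5 μM (3 libraries), a compound also called rebastinib that inhibits tyrosine kinases. The labels give 48 h for both groups, whereas a figure legend of the study gives a shorter treatment. The labels do not say that libraries of a group came from separate cultures, so p-values measure only the spread between these samples, which may be technical. Values are the authors' depth-adjusted signal, in which transcripts of 1 gene share reads, and the sequencing depth is unknown. Column totals of these values were 38997229, 39956227 and 40587145 in Control and 43279603, 45957597 and 48023306 with DCC-2036. Every DCC-2036 total was thus above every Control total, so scaling to equal totals lowers all LFCs.

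Insulin and the IGFs bind receptor tyrosine kinases, INSR and IGF1R, which phosphorylate the adaptor proteins IRS1 and IRS2 and so engage PI3K and AKT. AKT phosphorylates FOXO factors and holds them outside the nucleus, and FOXO factors in the nucleus switch on genes of growth arrest, stress resistance and, in some tissues, the receptors and adaptors themselves. IGF2R carries IGF2 and mannose-6-phosphate-tagged enzymes to lysosomes, and IGF-binding proteins hold IGFs outside the cell. Many colorectal tumours express IGF2, and LoVo cells are known for lacking active furin, a protease that cleaves the INSR and IGF1R precursors.

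IRS1 fell and IGF2R, IGFBP2, IGFBP6 and FOXO3 rose with DCC-2036, and FOXO4 fell. Of the 10 genes, 4 were called higher and 2 lower at an adjusted p under 0.01 (limma on log2(value + 1), two-sided, Benjamini-Hochberg over the 12725 genes tested). Among all tested genes, 19.2% were called higher and 22.7% lower, 41.9% in either direction. Calls were thus common throughout, and the count of 6 in 10 sets these genes apart in no tested way. Control and DCC-2036 values did not overlap in 8 of the 10, against 71.1% of all tested genes. The median log2 fold change (LFC, DCC-2036 minus Control on the log2(value + 1) scale, given with its standard error, SE) was 0.0 over the 10 genes and -0.092 over all tested genes. Scaling to equal column totals moved the median of all genes to -0.289 and the calls to 1669 higher and 3442 lower genes, from 2442 and 2887.

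**Figure D1:**
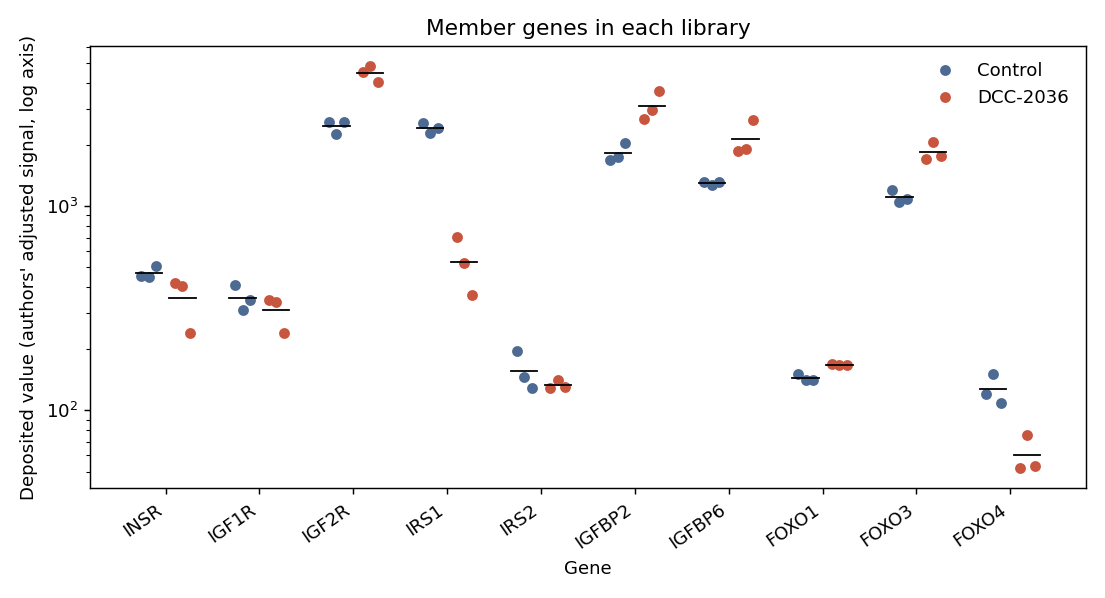
Deposited value (authors' adjusted signal, log axis) of each of the 10 genes in the 3 Control and 3 DCC-2036 libraries, with points for libraries and black bars for group means. The groups stand apart in 8 genes and overlap in IGF1R and IRS2.

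**Figure D2:**
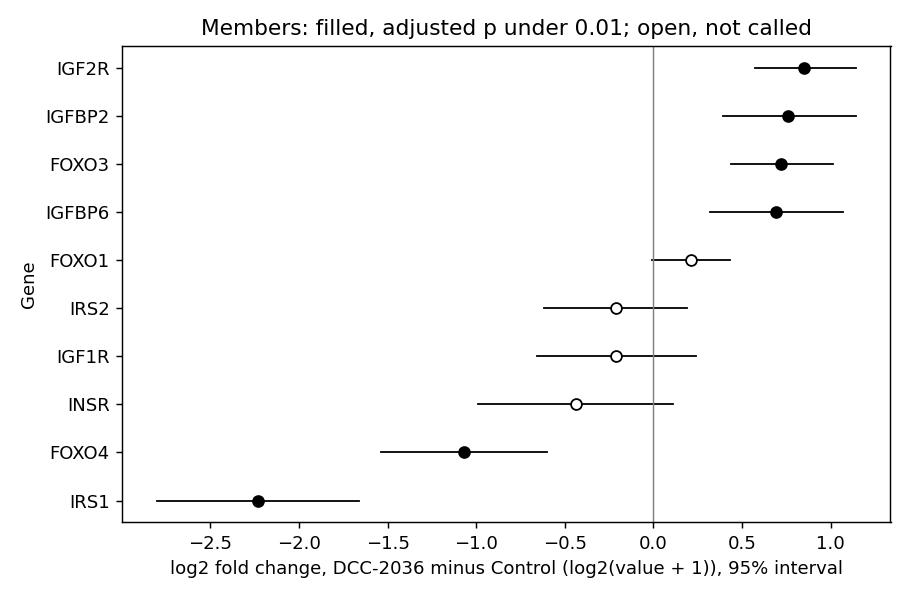
LFC (log2 fold change) of each gene, DCC-2036 minus Control on the log2(value + 1) scale, with its 95% confidence interval, n = 3 libraries a group. IRS1 lies lowest at -2.23 and IGF2R highest at 0.85, and filled points mark an adjusted p under 0.01.

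IRS1, the adaptor that links INSR and IGF1R to PI3K, showed the largest change of the 10 genes. Its values were 2537, 2290 and 2424 in Control against 706, 527 and 365 with DCC-2036. All 3 DCC-2036 libraries lay far below the Control libraries, with a Control mean 4.54 times the DCC-2036 mean. The LFC was -2.23 with an SE of 0.24 (adjusted p = 0.000674, limma), the 268th lowest of the 12725 tested genes. IRS1 was called under each alternative processing. The window of the RefSeq promoter table around the IRS1 start (GRCh38.p14, chr2:226799771-226800070, minus strand) is printed because IRS1 changed most, with GC boxes (GGGCGG or CCGCCC on either strand) in capitals:
IRS1 promoter: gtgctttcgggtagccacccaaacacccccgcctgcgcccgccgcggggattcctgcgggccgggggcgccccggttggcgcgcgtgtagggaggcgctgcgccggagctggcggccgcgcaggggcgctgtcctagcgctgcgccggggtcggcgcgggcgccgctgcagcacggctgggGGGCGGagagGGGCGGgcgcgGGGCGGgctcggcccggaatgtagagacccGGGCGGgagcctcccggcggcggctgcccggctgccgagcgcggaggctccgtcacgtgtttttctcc
It holds 4 GC boxes, counted with overlaps, and no FOXO core motif. The GC box was searched for after the data had been seen and was in 45.0% of all windows. Among windows of the other genes counts ran from 0, as in FOXO4, which fell, to 6 in IGF2R, which rose.

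IRS2, the related adaptor, is itself a known FOXO target. It measured 195, 145 and 129 in Control against 128, 140 and 130 with DCC-2036. The groups overlapped, and the LFC was -0.21 with an SE of 0.17 (adjusted p = 0.298, limma). Without Control replicate 1, the highest, the IRS2 LFC was -0.0432 (adjusted p = 0.788), and with equal totals it was -0.41 (adjusted p = 0.0905). Per kilobase of transcript, IRS1 stood 13.3 ± 2.45 times (SD, n = 3) above IRS2 in Control and 3.39 ± 1.16 times (SD, n = 3) with DCC-2036. This ratio within a library does not depend on how libraries were scaled, and it did not overlap between the groups. It was chosen after the values had been seen and was not tested.

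INSR, the insulin receptor, measured 452, 447 and 510 in Control against 422, 406 and 240 with DCC-2036. The groups did not overlap, DCC-2036 replicate 3 was far below replicates 1 and 2, and the change was not called (LFC -0.44, SE 0.23, adjusted p = 0.135, limma). Without that library the INSR LFC was -0.18 (adjusted p = 0.173). IGF1R, the IGF1 receptor, measured 409, 310 and 346 in Control against 348, 339 and 240 with DCC-2036. The groups overlapped (LFC -0.21, SE 0.19, adjusted p = 0.353, limma). Here too the lowest value was that of DCC-2036 replicate 3. The IGF1R LFC was -0.0379 without it, -0.10 without Control replicate 1, and -0.41 with equal totals (adjusted p = 0.142).

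IGF2R, which clears IGF2, was the member with the highest LFC. Its values were 2579, 2260 and 2588 in Control against 4523, 4849 and 4043 with DCC-2036, without overlap. The DCC-2036 mean was 181% of the Control mean, an LFC of 0.85 with an SE of 0.12 (adjusted p = 0.00155, limma). Of the alternatives, only a block on replicate number ended the IGF2R call (adjusted p = 0.0105, limma). In the annotation IGF2R overlaps the antisense gene AIRN, and how reads were assigned by strand is not given in the sources used here.

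Among proteases that can cleave receptor precursors, PCSK5 rose, PCSK7 fell, and FURIN and PCSK6 were not called. FURIN measured 1789, 1775 and 1927 in Control against 2776, 2402 and 1439 with DCC-2036 (adjusted p = 0.464, limma). DCC-2036 replicate 3 lay below all Control libraries, and the LFC of 0.22 ranged from 0.0235 without DCC-2036 replicate 1 (adjusted p = 0.931) to 0.50 without replicate 3 (adjusted p = 0.00862, called), with 0.0179 at equal totals. PCSK5 had 176 ± 11.3 in Control and 273 ± 30.0 with DCC-2036 (SD, n = 3), an LFC of 0.62 (adjusted p = 0.00525). The PCSK5 call was lost without any 1 of the Control replicates (0.59 to 0.67, adjusted p 0.0153 to 0.0254), with equal totals (0.43, adjusted p = 0.0353) and without the filter (adjusted p = 0.0125). PCSK7 went from 687 ± 8.03 to 366 ± 74.4, an LFC of -0.93 (adjusted p = 0.00341), and its call was lost without any 1 Control replicate or DCC-2036 replicate 2 (-0.93 to -0.92, adjusted p 0.0146 to 0.0162). PCSK6 had an LFC of -0.53 (adjusted p = 0.0129) and was called without DCC-2036 replicate 1 (-0.61, adjusted p = 0.0063), with equal totals (-0.72, adjusted p = 0.00858) and with upper quartile scaling (-0.54, adjusted p = 0.00949). INSRR, a receptor of the same family, was at most 2.07 and was not tested. Of the 8 genes on this list 7 were tested, 2 were higher and 1 lower, with a median LFC of -0.21. These were 28.6% and 14.3%, beside 19.2% and 22.7% of all tested genes.

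Of the ligands, IGF2 alone was above the filter. IGF2 measured 545, 459 and 485 in Control against 715, 734 and 784 with DCC-2036. The groups did not overlap, and the LFC was 0.59 with an SE of 0.11 (adjusted p = 0.0045, limma). That call was lost without any 1 Control replicate or DCC-2036 replicate 2 (0.53 to 0.66, adjusted p 0.0103 to 0.0245), with equal totals (0.39, adjusted p = 0.0219) and without the filter (adjusted p = 0.0111). In the annotation IGF2 overlaps the readthrough gene INS-IGF2 on the same strand, so its reads may be shared. INS was listed at 0 in all 6 libraries and IGF1 was at most 1.03.

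IGFBP2 and IGFBP6, secreted proteins that bind IGFs, both rose. IGFBP2 measured 1673, 1738 and 2030 in Control against 2664, 2955 and 3676 with DCC-2036, without overlap. Its LFC was 0.76 with an SE of 0.15 (adjusted p = 0.006, limma), and the call was lost without any 1 Control replicate or DCC-2036 replicate 2 (0.71 to 0.85, adjusted p 0.0139 to 0.0261) and without the filter (adjusted p = 0.014). IGFBP6, which prefers IGF2, measured 1318, 1270 and 1317 in Control against 1853, 1910 and 2638 with DCC-2036. DCC-2036 replicate 3 was the highest, and all 3 lay above Control. The LFC was 0.69 with an SE of 0.16 (adjusted p = 0.009, limma). The IGFBP6 call was lost without any 1 Control replicate or DCC-2036 replicate 2 (0.68 to 0.76, adjusted p 0.02 to 0.0351), with equal totals (0.50, adjusted p = 0.019), with upper quartile scaling (0.68, adjusted p = 0.0126) and without the filter (adjusted p = 0.0197).

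Of the 12 genes on the list of IGF-binding proteins and their proteases, 4 were tested. All 4 were called higher, beside 19.2% of all tested genes. IGFBP2 and IGFBP6 are 2 of the 4, and they and the list were chosen with earlier results of these data known. The count is thus a description and was not tested. IGFBP5 measured 2.74, 9.87 and 5.50 in Control against 77.56, 57.30 and 25.63 with DCC-2036. It passed the filter through the DCC-2036 libraries, so a difference was built into its test, and its LFC was 2.95 (SE 0.51, adjusted p = 0.00346, limma). Leaving IGFBP5 out, 3 of 3 tested genes were higher, with a median LFC of 0.76. The IGFBP5 call was lost without Control replicate 1 or 3 (2.56 to 2.96, adjusted p 0.0123 to 0.0149). Without any 1 DCC-2036 replicate IGFBP5 fell below the filter and was not tested. STC2, which inhibits a protease of IGF-binding proteins, went from 914 ± 26.1 to 1710 ± 122 (SD, n = 3), an LFC of 0.90 (adjusted p = 0.000799). The other 8 genes, among them the proteases PAPPA and PAPPA2, were below the filter, and IGFBP1 was listed at 0. Of the 3 IGF2 mRNA-binding proteins, all tested, 0 were called by limma. IGF2BP3 and IGF2BP1, named after their values were seen, had negative LFCs of -0.61 and -1.05 with an unadjusted limma p of 0.00892 and 0.0372, and IGF2BP2, also named so, had a positive one of 0.22 at 0.0514. IGF2BP1 passed the filter through Control, with 2 DCC-2036 libraries at 10 or above, so a difference was built into its p.

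On the adaptor list, 3 of 9 tested genes rose and 2 fell, with a median LFC of -0.21. That was 33.3% and 22.2%, beside 19.2% and 22.7% of all tested genes. GRB2, which connects receptors to RAS, rose from 5400 ± 276 to 14100 ± 2920 (SD, n = 3), an LFC of 1.36 (adjusted p = 0.00102, limma). GRB14 and GRB10 bind active INSR and dampen it. GRB14 rose from 46.1 ± 9.11 to 205 ± 57.4, an LFC of 2.11 (adjusted p = 0.000909), and GRB10 from 712 ± 37.8 to 1500 ± 107, an LFC of 1.07 (adjusted p = 0.000545). Beside IRS1, SH2B2 fell from 121 ± 24.5 to 50 ± 10.1, an LFC of -1.26 (adjusted p = 0.00272). The SH2B2 call was lost without Control replicate 1 or 3 or DCC-2036 replicate 2 (-1.31 to -1.10, adjusted p 0.0102 to 0.011). GAB1 (-0.69) and SHC1 (-0.45), named after their values were seen, had an unadjusted p under 0.05 and were not called.

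**Figure D3:**
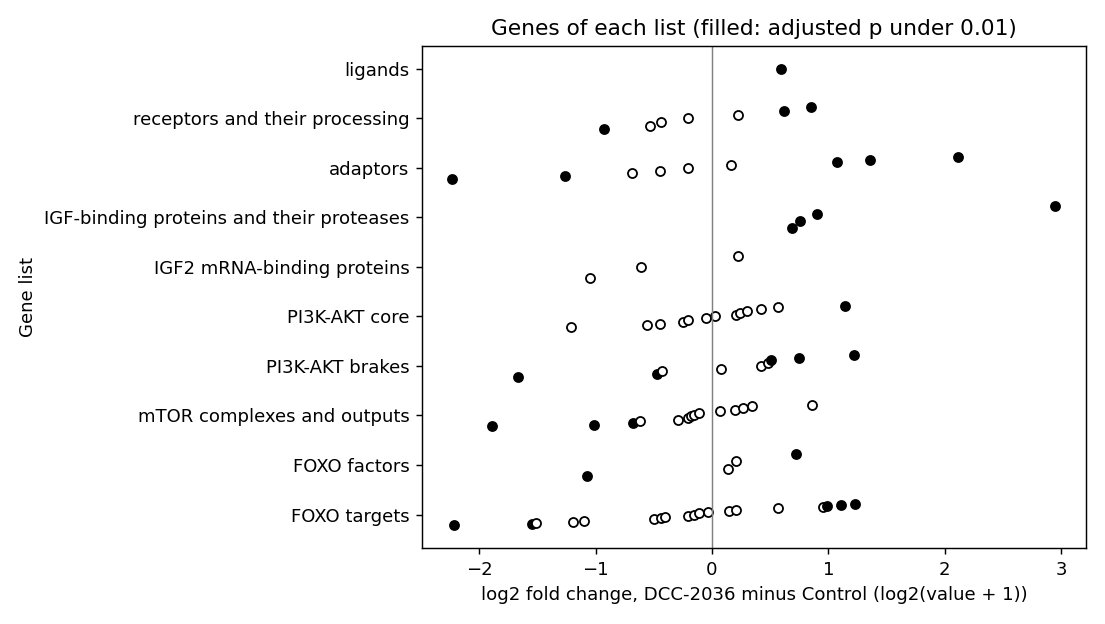
LFC (DCC-2036 minus Control, log2(value + 1) scale) of the tested genes of each list, 1 point a gene. Filled points mark an adjusted p under 0.01, open points genes not called, and the adaptor list runs from -2.23 (IRS1) to 2.11 (GRB14).

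Of the 13 genes of the PI3K-AKT core, all tested, 1 rose and 0 fell by limma, with a median LFC of 0.03. Among all tested genes, 19.2% rose and 22.7% fell. With an unadjusted limma p under 0.05 but no call, PIK3CA (-0.45) and PIK3CD (-1.21) had negative LFCs and PIK3R1 (0.57) and AKT2 positive ones, the first 3 named after their values were seen. The riser was SGK1, a kinase related to AKT that also phosphorylates FOXO factors, at 105 ± 22.8 in Control and 229 ± 20.4 with DCC-2036 (SD, n = 3). Its LFC was 1.14 (adjusted p = 0.00255, limma), and its call was lost without Control replicate 3 (1.18, adjusted p = 0.011). AKT1 had an LFC of -0.05 (adjusted p = 0.739), which changed sign without DCC-2036 replicate 3 (0.0379) and was -0.25 with equal totals (adjusted p = 0.174). AKT2 had 0.42 (adjusted p = 0.013), and was called without DCC-2036 replicate 3 (0.47, adjusted p = 0.00592) with median of ratios scaling (0.49, adjusted p = 0.00607) and with a variance trend (adjusted p = 0.00445), whereas with equal totals it was 0.22 (adjusted p = 0.152).

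Of the 9 tested phosphatases and inhibitors that restrain PI3K and AKT, 3 rose and 2 fell, with a median LFC of 0.42. That was 33.3% and 22.2%, beside 19.2% and 22.7% of all tested genes. INPPL1, a phosphatase of the lipid made by PI3K, fell from 1210 ± 47.0 to 389 ± 101 (SD, n = 3), an LFC of -1.67 (adjusted p = 0.000893, limma). TRIB3, an AKT-binding pseudokinase, rose from 944 ± 28.2 to 2200 ± 96.0, an LFC of 1.22 (adjusted p = 0.000289). PTPN1, which dephosphorylates INSR, rose from 1710 ± 93.2 to 2880 ± 129, an LFC of 0.75 (adjusted p = 0.00136). The calls of INPP4B (0.51, adjusted p = 0.00876) and PHLPP1 (-0.47, adjusted p = 0.00974) were lost without any 1 library except DCC-2036 replicate 1, with LFCs of 0.44 to 0.58 for INPP4B (adjusted p 0.0114 to 0.0397) and -0.51 to -0.42 for PHLPP1 (adjusted p 0.0138 to 0.0447). INPP4B was also lost with equal totals (0.31, adjusted p = 0.0428) and PHLPP1 with median of ratios (-0.40, adjusted p = 0.0163) and with a variance trend (adjusted p = 0.0163), and both without the filter on low values (adjusted p = 0.0193 and 0.0211). TRIB1 (0.42), named after its values were seen, had an unadjusted p under 0.05 and was not called.

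Of the 14 genes of the mTOR complexes and their outputs, all tested, 0 rose by limma and 3 fell, with a median LFC of -0.16. The 21.4% that fell was near the 22.7% of all tested genes, of which 19.2% rose. MLST8, a subunit shared by both complexes, went from 1320 ± 120 to 660.0 ± 132 (SD, n = 3), an LFC of -1.01 (adjusted p = 0.00291). Its call was lost without Control replicate 2 or 3 or DCC-2036 replicate 2 (-1.0 to -0.95, adjusted p 0.0135 to 0.0148). MAPKAP1, a subunit of mTORC2, had an LFC of -0.68 (adjusted p = 0.00658), lost without any 1 Control replicate or DCC-2036 replicate 2 (-0.70 to -0.66, adjusted p 0.0234 to 0.0288) and without the filter (adjusted p = 0.0151). DEPTOR, an mTOR inhibitor with low values of 19.2 ± 0.695 and 4.8 ± 2.74, had an LFC of -1.89 (adjusted p = 0.00245), lost without DCC-2036 replicate 2 (-1.73, adjusted p = 0.0104). It passed the filter through Control alone, so a difference was built into its test, and without any 1 Control replicate it was not tested. Leaving DEPTOR out, 2 of 13 genes fell and the median was -0.15. With an unadjusted p under 0.05 but no call, RHEB (0.86), RPS6KB2 (0.34) and EIF4EBP1 (0.27) had positive LFCs and EIF4EBP2 (-0.62) a negative one, all 4 named after their values were seen.

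FOXO3 rose and FOXO4 fell. FOXO3 measured 1197, 1048 and 1084 in Control against 1695, 2060 and 1758 with DCC-2036, without overlap. The LFC was 0.72 with an SE of 0.12 (adjusted p = 0.00286, limma). The FOXO3 call was lost without Control replicate 2 or 3 or DCC-2036 replicate 2 (0.64 to 0.71, adjusted p 0.013 to 0.0163) and with equal totals (0.53, adjusted p = 0.0113). A processed pseudogene, FOXO3B, is annotated as a copy of FOXO3, and how reads were split between them is not given in the sources used here.

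FOXO4 measured 120, 151 and 108 in Control against 51.92, 75.47 and 53.05 with DCC-2036. Every DCC-2036 library lay below every Control library, and the DCC-2036 mean was 47.6% of the Control mean. The LFC was -1.07 with an SE of 0.20 (adjusted p = 0.00413, limma), and the call was lost without any 1 Control replicate (-1.17 to -0.93, adjusted p 0.011 to 0.0161) and without the filter (adjusted p = 0.0102). Per kilobase, FOXO3 stood 4.03 ± 0.783 times (SD, n = 3) above FOXO4 in Control and 14 ± 1.46 times (SD, n = 3) with DCC-2036, a ratio chosen after the values had been seen and not tested. With the other FOXO4 transcript, whose matching entry is shorter, the ratio was 1.96 ± 0.487 and 6.49 ± 0.782.

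FOXO1 measured 151, 141 and 141 in Control against 168, 167 and 167 with DCC-2036, without overlap and with little spread. The change was small and was not called (LFC 0.21, SE 0.09, adjusted p = 0.0881, limma), and it was 0.0118 with equal totals and 0.28 with median of ratios (adjusted p = 0.0425). FOXO1 also has an annotated processed pseudogene, FOXO1B. FOXO6, the other factor of the family, had an LFC of 0.14 (adjusted p = 0.586), which changed sign without DCC-2036 replicate 3 (-0.0402) and with equal totals (-0.0569). Of the 4 FOXO factors, 1 was higher and 1 lower, with a median of 0.18, beside 19.2% higher and 22.7% lower among all tested genes.

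Of the 19 tested genes known as FOXO targets in some tissues, 3 rose and 2 fell, with a median LFC of -0.15, and 3 of the 22 listed were below the filter. The genes that rose were SOD2 and CAT, enzymes that remove superoxide and hydrogen peroxide, and BCL6, a transcriptional repressor. SOD2 rose from 1990 ± 66.3 to 3970 ± 305 (SD, n = 3), an LFC of 0.99 (adjusted p = 0.000643, limma). CAT rose from 679 ± 33.3 to 1470 ± 120, an LFC of 1.11 (adjusted p = 0.000523). BCL6 rose from 215 ± 18.1 to 508 ± 60.2, an LFC of 1.23 (adjusted p = 0.000681). ERBB3, a receptor, fell from 498 ± 40.4 to 170 ± 15.4, an LFC of -1.55 (adjusted p = 0.000287), and FBXO32, a ubiquitin ligase subunit, fell from 39.3 ± 3.85 to 8.10 ± 3.39, an LFC of -2.22 (adjusted p = 0.00152). FBXO32 passed the filter through the Control libraries, with 1 DCC-2036 library at 10 or above, so a difference was built into its test. Leaving out FBXO32 and KLF15, which passed in the same way and was not called, 3 of 17 genes rose and 1 fell, with a median of -0.11. With an unadjusted p under 0.05 but no call, CCNG2 (-1.19), CDKN1B (-0.40), PINK1 (-0.50) and KLF15 (-1.51) had negative LFCs and GADD45A (0.95) and BCL2L11 (0.57) positive ones, all 6 named after their values were seen. Over all lists, 14 of the 70 tested genes outside the 10 were higher and 9 lower, 20% and 12.9%, with a median of 0.05, beside 19.2%, 22.7% and -0.092 over all tested genes. Without the genes that passed the filter through 1 group, 13 of 65 were higher and 7 lower, with a median of 0.08.

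The table lists more than 1 transcript for 5 of the 10 genes, and each of the 7 other transcripts was called as the kept one was when all transcripts were tested as rows. Their LFCs differed from the kept transcript by at most 0.05, and 42.2% of all transcripts tested were called in either direction. In their coding part the 2 INSR transcripts differ by exon 11 of 22, which receptor form B includes and form A skips, and the matching GENCODE entries also differ at both ends. It covers 36 bases at chr19:7150497-7150532 (GRCh38, minus strand, coding) and is shown, in capitals between 12 bases of each neighbouring exon, because it is the coding difference between the forms:
INSR exon 11: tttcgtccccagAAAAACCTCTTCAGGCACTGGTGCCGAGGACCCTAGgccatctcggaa
The values of the forms were nearly equal. The transcript without the exon took 49.9% of their sum in Control and 49.7% with DCC-2036, without overlap (exact permutation p = 0.1, two-sided, the smallest 3 against 3 can give). Since reads of 1 gene are shared among its transcripts, these shares do not measure the forms. The other IGF1R transcript held 97.4% to 99.5% of the kept one's value, and those of IGFBP2 held 73.5% to 78.6%. That of FOXO4 held 77.0% to 90.0%, and that of FOXO3 at least 99.8%. In DCC-2036 replicate 3 the other FOXO3 transcript was above the kept one, at 1761.6 against 1758.1.

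Levels of different genes were compared per kilobase of the matching GENCODE 29 transcript. In Control, IGFBP2 at 1260 ± 132 and IGFBP6 at 1110 ± 23.3 (SD, n = 3) stood first and were followed by IRS1 at 249 ± 12.7, IGF2R at 176 ± 13.3 and FOXO3 at 151 ± 10.6. Below them came INSR at 99.5 ± 7.43, FOXO4 at 38.3 ± 6.58, IGF1R at 29 ± 4.12, FOXO1 at 25.2 ± 1.05 and IRS2 at 19.2 ± 4.25. Neighbours whose Control values overlapped were IGF2R with FOXO3, FOXO4 with IGF1R, and IGF1R with FOXO1. With DCC-2036, IRS1 went from place 3 to place 6 at 54.9 ± 17.6 per kilobase, below IGF2R at 318 ± 28.9, FOXO3 at 250 ± 26.6 and INSR at 75.4 ± 21.3, with INSR and IRS1 overlapping. The INSR level depends on transcript length, since the matching entries have 4721 and 8954 bases, and with the longer it was 52.3 ± 3.98 in Control and 39.4 ± 11.2 with DCC-2036, which would put INSR below IRS1 there and IRS1 at place 5. Other transcripts also moved FOXO4, to 80.4 ± 19.0 in Control with an entry of 1353 bases in place of 3301, and IGFBP2, to between 964 and 1640 in Control, where the lower value is below that of IGFBP6.

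**Figure D4:**
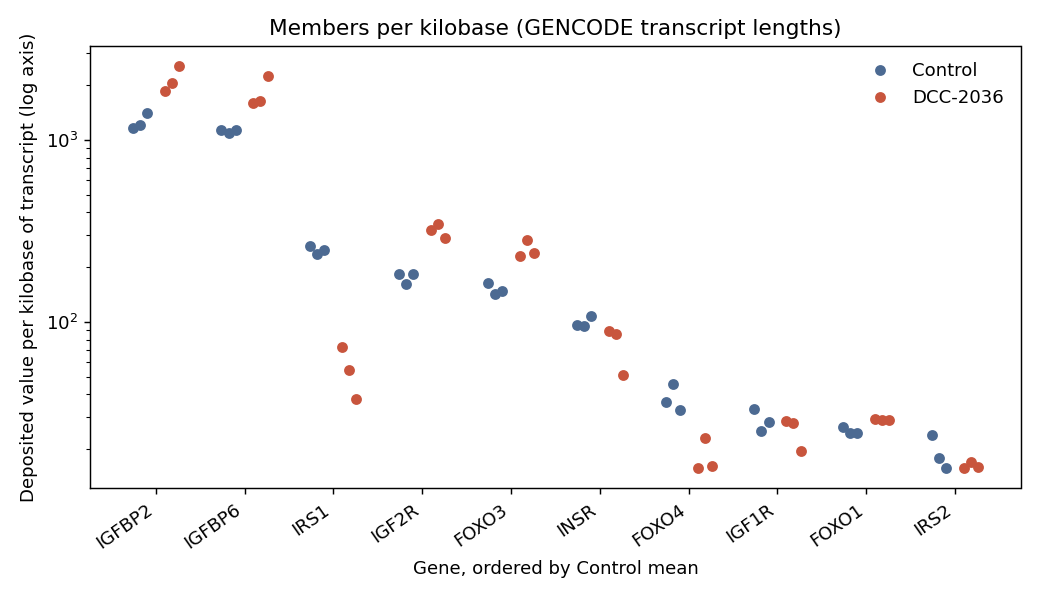
Deposited value per kilobase of GENCODE transcript (log axis) of the 10 genes in the 3 Control and 3 DCC-2036 libraries, 1 point a library, ordered by Control mean. IGFBP2 and IGFBP6 lie above 1000 in all libraries, and IRS1 lies lower with DCC-2036 than in Control.

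Promoter windows from 250 bases before to 50 after a start were found in RefSeq (GRCh38.p14) for all 10 genes, 15 windows in all. The FOXO core motif TGTTTAC or its reverse complement GTAAACA was in the windows of IGFBP6 and FOXO4, 2 of the 15 windows, and in 3.42% of all 35116 windows. These windows are shown because they hold it, at chr12:53097417-53097716 (plus strand) and chrX:71095601-71095900 (plus strand), with FOXO core motifs and GC boxes in capitals:
IGFBP6 promoter: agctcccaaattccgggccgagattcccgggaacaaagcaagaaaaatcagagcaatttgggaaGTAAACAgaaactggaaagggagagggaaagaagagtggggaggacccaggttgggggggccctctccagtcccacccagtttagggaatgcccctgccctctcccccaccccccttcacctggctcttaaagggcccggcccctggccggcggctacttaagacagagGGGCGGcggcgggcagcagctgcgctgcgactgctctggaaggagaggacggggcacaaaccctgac
FOXO4 promoter: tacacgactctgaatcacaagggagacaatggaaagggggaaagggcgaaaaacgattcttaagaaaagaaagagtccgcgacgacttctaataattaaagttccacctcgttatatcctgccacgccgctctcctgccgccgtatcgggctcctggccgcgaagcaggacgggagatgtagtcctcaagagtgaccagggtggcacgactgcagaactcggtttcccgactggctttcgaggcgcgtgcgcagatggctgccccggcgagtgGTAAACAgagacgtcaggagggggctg
The IGFBP6 motif lies before the start and the FOXO4 motif in the 50 bases after it, so in the bases before the start only IGFBP6 held one. IGFBP6 rose and FOXO4 fell. Searched after the data had been seen, the GC box was in 12 of the 15 windows, with none in that of FOXO4, and in 45.0% of all windows, and the E-box CACGTG, its own reverse complement, was in the windows of IGF2R (3) and IRS1 (1) and in 7.26% of all windows. A match is a description of the letters, and binding was not measured.

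The tested genes with the pattern most like IRS1 over the 6 libraries, by the root mean square difference of log2(value + 1) centred on each gene's mean, were DENND4B (0.044), CCDC136 (0.0594) and RIMKLA (0.0606). DENND4B went from 1144, 1074 and 1122 in Control to 308, 234 and 173 with DCC-2036. For IGF2R the nearest were GLG1 (0.0369), PRDM10 (0.051) and STAT3 (0.051). STAT3, a transcription factor of cytokine signalling, went from 1823, 1668 and 1708 to 3154, 3408 and 2937.

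The libraries carried markers of an epithelial line, and of 7 tested colorectal epithelial markers 2 (KRT8 and CDH1) were called higher and 1 (KRT20) lower. CDH1 and KRT20, named after their values were seen, had LFCs of 1.10 (adjusted p = 0.000354, limma) and -1.15 (adjusted p = 0.00427). KRT8 was the most abundant of 10 colorectal epithelial markers, at 59900 ± 4270 in Control and 108000 ± 16300 with DCC-2036 (SD, n = 3), while CDX1 was listed at 0 and VIL1 and LGALS4 were at most 7.23. Of 6 leukocyte markers PTPRC was listed at 0 and CD68 was the most abundant, at 245 ± 18.8 in Control and 240 ± 37.3 with DCC-2036. Of 6 fibroblast markers COL1A1 was the most abundant, at 376 ± 20.4 and 457 ± 55.3. Of 4 endothelial markers VWF was, at 9.18 ± 4.55 and 21.3 ± 10.1 (SD, n = 3). None of the other cell types' tested markers was called by limma, and 0 of the 4 tested had an adjusted p under 0.05, with 1, VWF, at an unadjusted p of 0.0394. VWF passed the filter through the DCC-2036 libraries, with 2 Control libraries at 10 or above, so a difference was built into its p. The 3 DCC-2036 libraries differed among themselves more than the Control libraries did. The median absolute log2 difference of a library from the other 2 of its group was 0.115, 0.089 and 0.108 in Control and 0.287, 0.103 and 0.311 with DCC-2036, and the part of this spread in the results was not tested.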

How the data were processed

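RNA of LoVo cells was sequenced in 6 libraries from total RNA, and samples were grouped by their titles into 3 Control and 3 DCC-2036 (2.5 μM, 48 h per the labels). The authors deposited 1 value per RefSeq transcript and library, a signal adjusted to a common depth that is neither whole nor per length. The aligner, counter, build and strand setting are not given in the sources used here, and depth is unknown. The authors' log2 fold changes, p-values and q-values per transcript stand in the same table and were not used.

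For each symbol the transcript with the highest mean was kept. Genes with at least 10 in at least 3 libraries (12725 of 19223) were tested as log2(value + 1) with limma 3.58.1 in R 4.3.3, two-sided, without covariates, adjusted by Benjamini-Hochberg over all genes tested and called at an adjusted p under 0.01. This scale understates changes of low genes. The fit was tested on simulated data, and the outcome is not reported here. Python 3.11.15, numpy 2.4.6, pandas 2.3.3 and matplotlib 3.10.9 were used for the rest. Lengths came from GENCODE 29 through RefSeq accessions and promoters from RefSeq.

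The 10 genes and all lists were chosen with earlier results of these data known. Named genes were the 10, all genes of the ligand, receptor and FOXO lists, up to 4 called genes at each end of every other list, AKT1 and AKT2, the most abundant marker of each cell type, and the 3 nearest patterns to IRS1 and to IGF2R. All other listed genes and markers named in the text were chosen after their values were seen, as were the within-library ratios, the GC box and the E-box. Promoter windows were at one point shortened to the 250 bases before the start after matches had been seen, and the full windows laid down for the search are reported. Alternatives were a pseudocount of 0.1, other filters, 3 scalings, an adjusted p limit of 0.05, a variance trend, a replicate block, each library left out, and all transcripts as rows. A search of FOXO proteins for AKT sites was not done. The results of 1 listed gene are not reported here, and the list counts and medians leave it out.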

Additional observations from a re-analysis of the deposited data

How the results depend on the processing

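Across 16 alternatives, 0 of the 10 genes changed direction, and IRS1, INSR, IGF1R, IRS2 and FOXO1 stayed on their side of the limit in all of them. IRS1 ranged from -2.46 to -1.98. Without the filter, more genes were tested, and FOXO4 (-1.07), IGFBP2 (0.76) and IGFBP6 (0.69) were not called, leaving 2 called higher and 1 lower. With equal totals FOXO3 (0.53) and IGFBP6 (0.50) were not called, leaving 2 higher, and with upper quartile scaling IGFBP6 (0.68) was not. The cause was not tested.

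Deviations from the group means had correlations of 0.081, -0.035 and -0.003 between libraries of the same replicate number. These gave no sign of pairing but cannot exclude it, since each group has only 3 libraries and the labels state no pairing. With a replicate block, 1202 genes were called higher and 1909 lower, and IGF2R (0.85), FOXO3 (0.72) and IGFBP6 (0.69) were not called, leaving 1 of the 10 higher. Of the other named genes IGF2, IGFBP5, PCSK5, PCSK7, INPP4B, PHLPP1 and MAPKAP1 were not called with it (adjusted p 0.0118 to 0.0235). With all transcripts as rows, 6379 rows were higher and 7250 lower.

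Without 1 library, which leaves fewer samples, genes called ranged from 928 to 2675 higher and from 1514 to 3507 lower, and of the 10 genes from 1 to 4 were called higher and from 1 to 2 lower. Log2 fold changes ranged from 0.64 to 0.78 for FOXO3, -1.24 to -0.93 for FOXO4, 0.63 to 0.87 for IGFBP2 and 0.53 to 0.79 for IGFBP6. For genes not called, INSR ranged from -0.58 to -0.18, IGF1R from -0.31 to -0.0379, IRS2 from -0.34 to -0.0432 and FOXO1 from 0.19 to 0.24, and IGF2R, called each time, from 0.79 to 0.92. Of 28 other named genes, 11 kept direction and call in all 16 alternatives and 14 changed call in at least 1. FBXO32 kept its call in the 15 that tested it, since it did not reach 10 in all libraries, and DEPTOR and IGFBP5 were tested in 12 each. AKT1 changed sign with median of ratios (0.0181) and ranged from -0.13 to 0.0379 without 1 library. FOXO6 changed sign with equal totals (-0.0569) and ranged from -0.0402 to 0.30 without 1 library. Depth is unknown, so what low values can show is not known.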
